A study of Mus musculus with 7 samples.

Results

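The genes of lower glycolysis and its regulators were followed as 10 members: Gapdh, Pgk1, Pgam1, Eno1, Eno2, Pkm, Bpgm, Pfkfb2, Pfkfb3 and Tigar. They were chosen by gene symbol, as every H3K18La peak that the deposited annotation assigned to 1 of these genes. This gave 34 of 108253 peaks, and all 10 genes had a promoter peak, out of 14562 genes with one in the table. For each gene, the promoter peak nearest an annotated transcription start site is described first. H3K18La is histone H3 lactylated at lysine 18, a mark that was measured by CUT&Tag, in which an antibody to the mark steers an enzyme to the DNA around it. The samples were retinas of C57Bl/6J mice. The labels name no treatment or allele and give 3 ages, postnatal day 4 (P4, 2 libraries), day 10 (P10, 2 libraries) and day 28 (P28, 3 libraries). Whole retinas were dissociated with papain, so each library mixes all retinal cell types. In such bulk samples, more cells with the mark and more of the mark per cell cannot be told apart. The labels put P28 replicate 1 in batch 2 and the other 6 libraries in batch 1.

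Glycolysis splits glucose into pyruvate, and its lower steps, from glyceraldehyde 3-phosphate onward, are the ones that yield ATP. In the retina, photoreceptors turn much of the pyruvate into lactate even when oxygen is present, and lactate is the source of the lactyl group on histones. Gapdh makes 1,3-bisphosphoglycerate, Pgk1 takes ATP from it, Pgam1 moves the remaining phosphate, enolase (Eno1 and Eno2) makes phosphoenolpyruvate, and Pkm encodes the pyruvate kinase that makes pyruvate. The other members are side branches or controls. Bpgm makes and breaks 2,3-bisphosphoglycerate. Pfkfb2 and Pfkfb3 are bifunctional enzymes that set the level of fructose 2,6-bisphosphate, the activator of phosphofructokinase, and Tigar removes the same activator. The comparison of ages asks how the mark at these genes changes as the retina matures from a tissue with dividing and newborn neurons at P4 to one with mature photoreceptors at P28.

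The libraries differed in depth, from 199970 reads in peaks at P10 replicate 1 to 8274373 at P28 replicate 2, a ratio of 41.4. The mark is given as RPKM, reads scaled by the length of the peak and by a normalized library size, as deposited. For a peak of 1000 bases, 1 read was worth 0.454 and 0.597 RPKM at P4, 1.81 and 0.788 RPKM at P10, and 0.0615 to 0.262 RPKM at P28. A count of 0 allows up to 3 reads, and this limit and all read intervals cover counting error only. The 6 rod photoreceptor markers summed here (Nrl, Nr2e3, Sag, Gnat1, Pde6b and Cnga1) all had a promoter peak. Their summed promoter signal was 19.5 to 24.4 RPKM at P4, 170.0 to 178 RPKM at P10 and 120.0 to 169 RPKM at P28. All 6 were called higher than at P4 by P10 (12.0% of all genes) and by P28 (31.0%). Summed over 3 cone markers the signal was 2.31 to 3.71 RPKM at P4, 10.9 to 15.2 RPKM at P10 and 12.4 to 15.1 RPKM at P28 (Opn1sw called by P10, Arr3 by P28). Over 4 Mueller glia markers it was 6.57 to 8.61 RPKM at P4, 17.9 to 18.7 RPKM at P10 and 19.4 to 23.6 RPKM at P28 (Glul called by P28). Over 4 bipolar cell markers it was 3.77 to 4.96 RPKM at P4, 0.545 to 2.47 RPKM at P10 and 7.82 to 11.1 RPKM at P28 (0 called). Over 3 markers of progenitors and dividing cells (Mki67, Sox2 and Hes1) it was 4.50 to 4.64 RPKM at P4, 7.24 to 9.49 RPKM at P10 and 7.31 to 8.26 RPKM at P28 (0 called). Sox2 went from 1.69 and 1.66 RPKM at P4 to 1.22, 0.63 and 0.48 RPKM at P28, all lower. Mki67 and Hes1 were higher in every P28 library than at P4. Ccnd1 and Top2a of this list and Pde6h of the cone list had no promoter peak. The part of these cell types in the results below was not tested. Of 4 markers of the retinal pigment epithelium, Rpe65, Tyr and Pmel had no promoter peak, and of 4 markers of blood and vessel cells only Cldn5 had one.

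The sequences that bear on the promoters are those just before the start sites, and those of 3 genes are shown. They are from RefSeq on GRCm38.p6, reach at most 250 bases before a start site and leave out annotated exon bases. Capitals mark, on either strand, GGGCGG (the GC box that SP and KLF factors read), CCAAT (the NFY box), CACGTG (an E-box) and ACGTG (the core of the hypoxia response element, which also lies inside CACGTG). The Pgk1 stretch, chrX:106186850-106187099 on the plus strand, is shown because nearly all of it lies in the peak while the start site does not. The Eno1 stretch, chr4:150236458-150236707 on the plus strand, belongs to the one promoter, of the 10 nearest a start site, that was called by P10. The last 2 are the inner Pfkfb3 promoter, chr2:11502102-11502340, and its outer promoter, chr2:11554078-11554179, both on the minus strand, of which the inner was called higher at P28 and the outer was not.
Pgk1: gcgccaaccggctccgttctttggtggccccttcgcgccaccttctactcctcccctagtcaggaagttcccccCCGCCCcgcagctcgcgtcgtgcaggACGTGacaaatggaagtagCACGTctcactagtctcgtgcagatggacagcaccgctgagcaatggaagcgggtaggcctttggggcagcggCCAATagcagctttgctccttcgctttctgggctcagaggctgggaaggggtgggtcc
Eno1: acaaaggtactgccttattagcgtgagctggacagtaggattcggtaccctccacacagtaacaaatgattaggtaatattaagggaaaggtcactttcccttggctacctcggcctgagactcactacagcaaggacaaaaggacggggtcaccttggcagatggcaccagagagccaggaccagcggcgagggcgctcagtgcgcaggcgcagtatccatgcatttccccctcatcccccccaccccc
Pfkfb3 inner promoter: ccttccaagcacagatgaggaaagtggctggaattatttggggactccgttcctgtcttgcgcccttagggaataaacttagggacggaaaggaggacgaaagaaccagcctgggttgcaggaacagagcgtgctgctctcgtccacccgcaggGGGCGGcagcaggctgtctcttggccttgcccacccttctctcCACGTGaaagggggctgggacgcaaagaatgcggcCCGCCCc
Pfkfb3 outer promoter: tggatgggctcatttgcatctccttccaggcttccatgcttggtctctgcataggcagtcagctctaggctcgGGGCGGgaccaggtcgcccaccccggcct

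In 1 window of 250 bases per member, exon bases included, GGGCGG was found in 5 of 10 members, against 32.7% of all 32851 windows of the RefSeq table. CCAAT was in 4 members (33.8% of all windows), ACGTG in 3 (16.6%), CACGTG in 1 (6.0%) and TATAAA, the TATA box, in 1 (12.4%). TAATCC, the core read by the photoreceptor factor CRX, was in 0 of 10, against 6.3%. The 3 windows with ACGTG belonged to Pgk1, Pgam1 and Pfkfb3, and Pgk1 and Pfkfb3 each held 2 copies. In Pfkfb3 both copies are the same E-box read on each strand. None of the searched letters was in the Eno1, Gapdh or Pfkfb2 window. The counts depend on the start site taken. Over all 16 windows of the table for these genes, GGGCGG was found for 7 members, CCAAT for 6, ACGTG for 5 and CACGTG for 2. A second Pfkfb2 window in the same peak held 2 copies of GGGCGG and 1 CACGTG, and the other 2 Eno1 windows, which are mostly exon, held 2 and 3 copies of GGGCGG. The member promoter peaks had a median GC content of 57.95%, next to 57.8% over the promoter peaks of all genes.

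From P4 to P28, H3K18La rose at 8 of the 10 promoters, by limma on log2(RPKM + 1) at a Benjamini-Hochberg adjusted p under 0.01. These were Gapdh, Pgk1, Pgam1, Eno1, Eno2, Pkm, Pfkfb3 and Tigar. The background for such a call was 31.0% of the promoter peaks of all genes. The table merges peaks called at any age, so a peak called only at a later age was likely to rise from P4. This holds for the members and for the background, and the ages at which each peak was called were not used. The changes ran from 1.79 to 2.64 on the log2 scale with a median of 2.39, against a median of 1.26 over all genes. Bpgm and Pfkfb2 had positive changes that missed the threshold, and none of the 10 was lower. At all 10 promoters every P28 library lay above every P4 library, which was so for 74.4% of all genes. Without P28 replicate 1, and so within batch 1 alone, 4 were called (Gapdh, Pgk1, Eno1 and Pkm) and all 10 changes were positive. Without P4 replicate 1, Gapdh, Pgk1 and Eno1 were called. Without P4 replicate 2, Eno1 was called, and so was Pfkfb2, which is not among the 8. Without P28 replicate 2 or replicate 3, Gapdh, Eno1 and Pkm were called. For fits with a library left out, here and below, the share of all genes called is not given. Their counts therefore cannot be set against a background. Under the 14 other settings tried, the call held 14 times for Eno1, 13 for Gapdh, 11 for Pkm, 9 for Pgk1, 8 for Eno2, 6 for Tigar and 5 each for Pgam1 and Pfkfb3. Of the 14, 1 took the promoter peak with the highest mean, which was the same peak for all 10 genes. That setting could not change a call. The labels call the replicates biological without saying how many animals each holds.

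**Figure D1:**
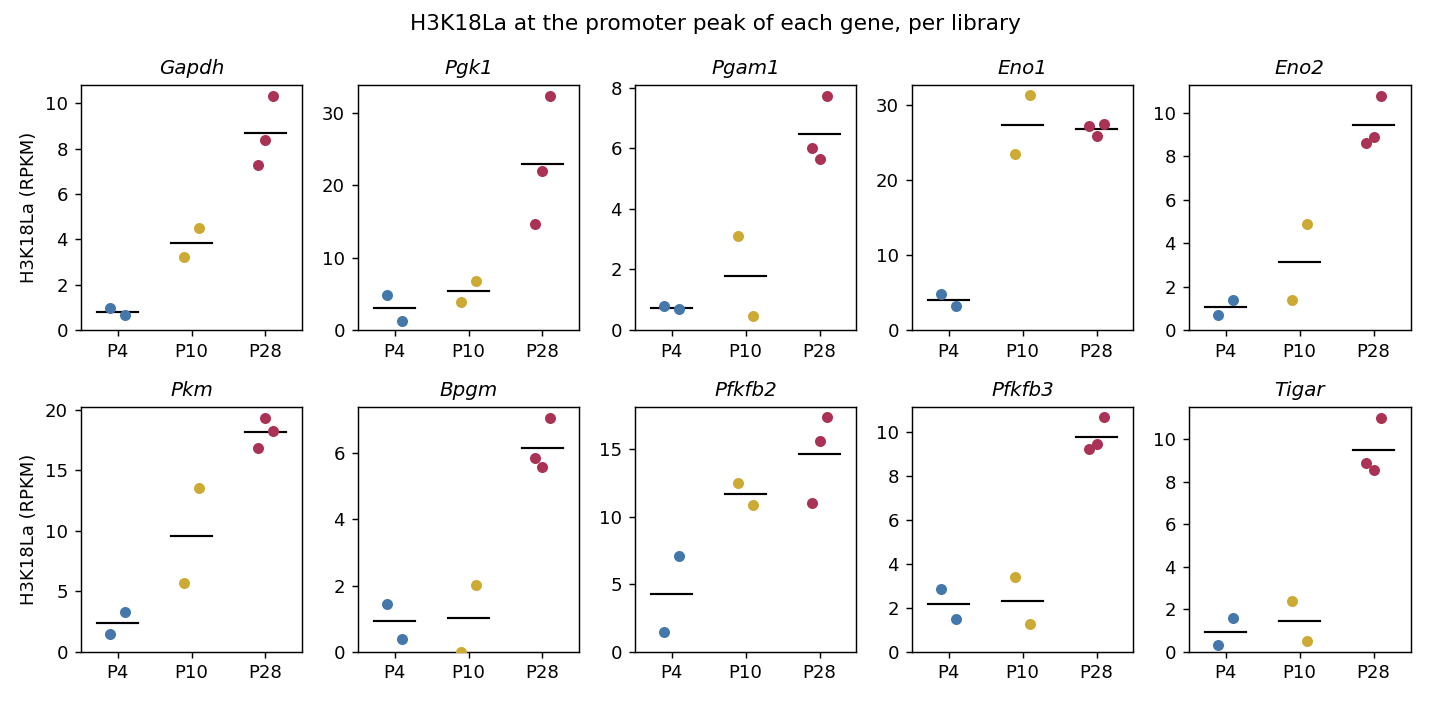
H3K18La in RPKM (y axis, own scale per panel) at the promoter peak of each of the 10 genes in every library at P4 (n = 2), P10 (n = 2) and P28 (n = 3), with the mean as a line. The P28 points lie above the P4 points in all 10 panels, while Eno1 and Pfkfb2 overlap between P10 and P28.

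The trunk of the pathway begins with Gapdh (ENSMUSG00000057666), whose promoter peak covered chr6:125164298-125167108 of GRCm38, over 8 of its start sites. Its level was 0.97 and 0.64 RPKM in the P4 libraries, 3.21 and 4.49 RPKM at P10, and 7.28, 8.40 and 10.32 RPKM at P28. The 3 ages did not overlap, and each was higher than the one before. The mean was 0.803 ± 0.235 RPKM (SD, n = 2) at P4 and 8.67 ± 1.54 (SD, n = 3) at P28, 10.8 times as high. The log2 change was 2.42 with a standard error of 0.35 (limma adjusted p = 0.000744). The change to P10 was 1.42, which missed the threshold (limma adjusted p = 0.0170). Reads behind the P4 values were 6 and 3.

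Pgk1 (ENSMUSG00000062070), next in the pathway, had a narrow peak of 465 bases, chrX:106186633-106187097, which ended 3 bases before the start site and so held none of the gene's exons. It had 4.89 and 1.28 RPKM at P4, 3.88 and 6.78 RPKM at P10, and 14.67, 21.94 and 32.31 RPKM at P28. P4 and P10 overlapped, while the P28 libraries were apart from both and spread widely among themselves. The log2 change from P4 to P28 was 2.64 with a standard error of 0.47 (limma adjusted p = 0.00194). The P4 libraries held 5 and 1 reads, so the fold of 7.45 between the means is imprecise.

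Pgam1 (ENSMUSG00000011752; chr19:41911603-41913343) had 0.78 and 0.69 RPKM at P4, 3.11 and 0.45 RPKM at P10, and 6.03, 5.65 and 7.74 RPKM at P28. The P10 libraries lay on either side of the P4 libraries, and the P28 libraries were above all others. Its P4 libraries held 3 and 2 reads. Pooled over libraries, the ratio of P28 to P4 was 8.33 with a 95% counting interval of 3.53 to 25.9. The log2 change was 2.10 with a standard error of 0.49 (limma adjusted p = 0.00764), a call that held under 5 of the 14 other settings tried.

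The 2 enolase genes encode the form found in most tissues, Eno1, and the form typical of neurons, Eno2. Eno1 (ENSMUSG00000063524; chr4:150236450-150237761) had 4.85 and 3.18 RPKM at P4, 23.39 and 31.24 RPKM at P10, and 27.20, 25.81 and 27.38 RPKM at P28. The P10 libraries lay on either side of the P28 libraries, and both were far above P4. The means were 4.02 ± 1.18, 27.3 ± 5.55 and 26.8 ± 0.857 RPKM (SD, n = 2, 2 and 3). The log2 change was 2.49 to P28 (SE 0.27, limma adjusted p = 0.00022) and 2.50 to P10 (SE 0.29, limma adjusted p = 0.000686), and both calls held under each of the 14 other settings tried. Of the 10 promoter peaks nearest a start site, Eno1 was the one called by P10. The study itself shows the gene as an example, so its call is not independent evidence.

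Eno2 (ENSMUSG00000004267; chr6:124767662-124770254) had 0.70 and 1.38 RPKM at P4, 1.39 and 4.86 RPKM at P10, and 8.60, 8.91 and 10.79 RPKM at P28. The ages did not overlap, although P10 replicate 1, with 2 reads, was next to the higher P4 library. The log2 change to P28 was 2.37 (SE 0.43, limma adjusted p = 0.00235) and to P10 it was 0.90 (limma adjusted p = 0.180). The peak also covers exons of Lrrc23, and signal of the neighbouring genes cannot be separated there. Within a library, the log2 ratio of Eno1 to Eno2, from RPKM + 1, was 1.78 and 0.81 at P4, 3.35 and 2.46 at P10, and 1.55, 1.44 and 1.27 at P28. The ratio was highest in both P10 libraries. Exact two-sided permutation tests gave p = 0.333 for P10 against P4 and p = 0.2 for P28 against P10 (0.3 adjusted over 3 pairs of genes), each the smallest p that 2 against 2 and 3 against 2 libraries allow.

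Pkm (ENSMUSG00000032294) closes the trunk, with a promoter peak at chr9:59655909-59657187. The level was 1.42 and 3.27 RPKM at P4, 5.65 and 13.56 RPKM at P10, and 16.82, 19.37 and 18.23 RPKM at P28. The ages did not overlap, and the 2 P10 libraries were far apart. The log2 change was 2.57 to P28 (SE 0.39, limma adjusted p = 0.000943) and 1.61 to P10 (limma adjusted p = 0.0158).

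Of the side branch and the regulators, Bpgm (ENSMUSG00000038871; chr6:34475500-34477066) had 1.45 and 0.38 RPKM at P4, 0 and 2.01 RPKM at P10, and 5.86, 5.57 and 7.05 RPKM at P28. The count of 0 reads at P10 replicate 1 allows up to 3.46 RPKM. P4 and P10 overlapped and P28 stood above both. The log2 change to P28 was 1.96 (SE 0.54, limma adjusted p = 0.0162), past 0.05 but not 0.01.

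Tigar (ENSMUSG00000038028; chr6:127108439-127109946) had 0.30 and 1.58 RPKM at P4, 2.39 and 0.52 RPKM at P10, and 8.87, 8.56 and 10.99 RPKM at P28. P4 and P10 overlapped, and the P28 mean was 10.1 times the P4 mean. The log2 change was 2.51 (SE 0.47, limma adjusted p = 0.00266), on 1 and 4 reads at P4. Its call held under 6 of the 14 other settings tried. Exons of Platr31 lie in the same peak.

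Pfkfb3 (ENSMUSG00000026773) had 3 promoter peaks, more than any other member. All 3 lie over a start site, so the tie went to the widest. This was the inner one, chr2:11500621-11503800, which is 3180 bases wide and covers 8 of the gene's start sites. Its level was 2.86 and 1.50 RPKM at P4, 3.41 and 1.24 RPKM at P10, and 9.24, 9.45 and 10.70 RPKM at P28. P4 and P10 overlapped fully, and every P28 library was above them. The log2 change to P28 was 1.79 (SE 0.40, limma adjusted p = 0.00588), and that to P10 was 0.02 (limma adjusted p = 0.993). The call at P28 held under 5 of the 14 other settings tried. Scaled to reads in peaks, the change to P28 was 0.58 (limma adjusted p = 0.326).

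The outer Pfkfb3 promoter, chr2:11552901-11554118, covers 2 other start sites farther upstream. It had 2.61 and 4.41 RPKM at P4, 0 and 5.18 RPKM at P10, and 2.80, 3.38 and 2.41 RPKM at P28. Here the 3 ages overlapped, and the P28 mean was 0.816 times the P4 mean. The log2 change was -0.20 with a standard error of 0.67 (limma adjusted p = 0.822), an error wide enough that a change of either sign is possible. The remaining promoter peak, chr2:11480468-11482411, lies over the start of a retained-intron transcript. It had 0.70 and 0.31 RPKM at P4, 0 and 0.81 RPKM at P10, and 3.37, 4.17 and 5.15 RPKM at P28, with a log2 change of 1.80 that missed the threshold (limma adjusted p = 0.0118). The difference between the promoters was not tested. Of the sequences printed above, the inner stretch holds the E-box and the outer one does not. The outer stretch is shorter because 148 exon bases were left out. With them, the outer window of 250 bases held no E-box, 1 ACGTG and 2 GGGCGG, and the inner window also held 2 GGGCGG. A link between these letters and the mark was not tested.

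Pfkfb2 (ENSMUSG00000026409) had 2 promoter peaks side by side. The wider, chr1:130715175-130716764, had 1.43 and 7.13 RPKM at P4, 12.49 and 10.91 RPKM at P10, and 11.06, 15.66 and 17.38 RPKM at P28. The P4 libraries were far apart, with 5 and 19 reads, and the change of 1.80 to P28 missed the threshold (SE 0.46, limma adjusted p = 0.0121). Without P4 replicate 2 it was 2.67 and was called, and without P4 replicate 1 it was 0.926 (limma adjusted p = 0.0891). The narrower peak, chr1:130716832-130717669, had 2.71 and 1.42 RPKM at P4, 15.08 and 10.35 RPKM at P10, and 7.83, 9.53 and 10.92 RPKM at P28. It rose by 2.17 to P10 (limma adjusted p = 0.00243) and was 1.79 above P4 at P28 (limma adjusted p = 0.00254). The wider peak also holds a start site of Gm29427 and the narrower one a start site of Yod1, so neither belongs to Pfkfb2 alone.

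**Figure D2:**
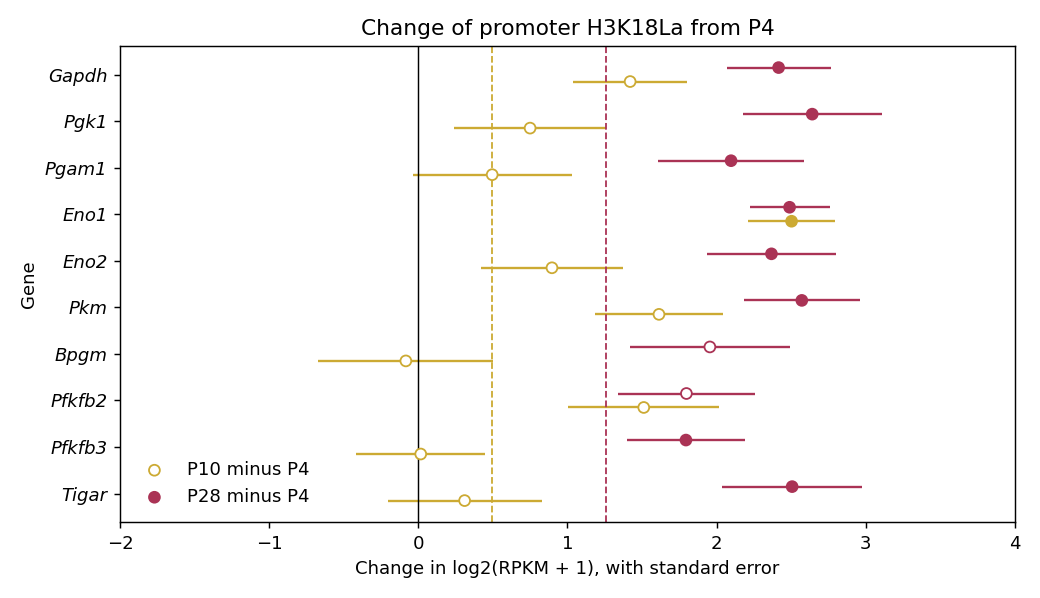
Change of promoter H3K18La on the log2(RPKM + 1) scale (x axis) from P4 to P10 and from P4 to P28, with the standard error as a bar, for each gene (y axis). Filled points passed an adjusted p under 0.01, and dashed lines give the medians over all genes, 0.50 for P10 and 1.26 for P28. Eno1 is the one gene with both points filled, and the P28 points of all 10 genes lie to the right of the P28 median.

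The share of the gain in place at P10 was computed for each member on the deposited scale alone, and differences between members were not tested. As a share of the rise in mean log2 level from P4 to P28, Eno1 had reached 100.5%, Pfkfb2 84.1%, Pkm 62.8% and Gapdh 58.8%. Eno2 had reached 37.8%, Pgk1 28.4%, Pgam1 23.6% and Tigar 12.4%. Pfkfb3 stood at 0.902% and Bpgm at -4.28%, the latter with 0 reads in 1 P10 library. When 1 library at a time was left out, a check chosen after seeing the data, the share stayed between 92.5 and 108.6% for Eno1, 69.1 and 90.4% for Pfkfb2, and 50.9 and 66.7% for Gapdh. It ran from 40.8 to 84.7% for Pkm, 10.5 to 65.2% for Eno2, 3.4 to 43.1% for Pgk1 and -12.2 to 59.4% for Pgam1. For Tigar it ran from -10.7 to 35.5%, for Pfkfb3 from -26.3 to 28.1% and for Bpgm from -45.0 to 36.4%. Only the range of Eno1 lay clear of all others. The range of Pkm overlaps those of Pfkfb2, Gapdh, Eno2, Pgk1 and Pgam1, and that of Gapdh overlaps those of Eno2 and Pgam1. The ranges of Eno2, Pgk1, Pgam1, Tigar, Pfkfb3 and Bpgm overlap each other. Below Eno1, the order as a whole is therefore not resolved. These ranges do not cover the choice of scale. Scaled to reads in peaks, all 10 changes to P28 were positive, but 5 of the changes to P10 were, against 9 as deposited. The 5 were Gapdh, Eno1, Eno2, Pkm and Pfkfb2, with Eno2 the smallest. Pgk1 (-0.31), Pgam1 (-0.17), Pfkfb3 (-0.98) and Tigar (-0.33) turned negative, so their positive shares depend on the deposited scale. From P4 to P10, 1 of 10 promoters was called, Eno1, against 12.0% of all genes. At an unadjusted p under 0.05 there were 4, against 31.2% of all genes. Limma's voom on the recovered reads called 4 (Gapdh, Eno1, Pkm and Pfkfb2), against 14.8% of all genes. Both P10 libraries lay above both P4 libraries at 5 promoters, next to 44.3% of all genes. The median change was 0.82, against 0.50 over all genes. Because this comparison and that of P28 with P4 share the P4 libraries, their values are given side by side and not correlated.

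From P10 to P28, limma called 0 of 10 promoters, and 0% of the promoter peaks of all genes. At an unadjusted p under 0.05 there were 8, all higher at P28, against 34.8% of all genes. Voom called 4 (Pgam1, Bpgm, Pfkfb3 and Tigar), against 4.11% of all genes. Without P10 replicate 1, Tigar was called, and without P10 replicate 2, Eno2 and Bpgm. The differences with the lowest adjusted p were those of Tigar (2.20, limma adjusted p = 0.0203) and Pfkfb3 (1.78, limma adjusted p = 0.0225). Every P28 library was above both P10 libraries at 8 promoters, all but Eno1 and Pfkfb2, against 50.4% of all genes. The median difference was 1.54, next to 0.68 over all genes. Eno1 differed by -0.01 (limma adjusted p = 0.980) and Pfkfb2 by 0.29 (limma adjusted p = 0.690). Of the rod markers, by mean RPKM, Nrl, Nr2e3 and Sag were higher at P10 than at P28, and Gnat1, Pde6b and Cnga1 were higher at P28. None of these differences was called, and the P10 and P28 libraries of Sag, Gnat1 and Pde6b overlapped.

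The within-library ratio of the 2 bifunctional enzymes, Pfkfb2 over Pfkfb3, was -0.67 and 1.70 on the log2 scale at P4, 1.61 and 2.41 at P10, and 0.24, 0.67 and 0.65 at P28. The P28 libraries were all below both P10 libraries, a mean difference of -1.49 (exact permutation p = 0.2, the smallest possible; 0.3 adjusted over 3 pairs). P28 and P4 differed by 0.00 with the P4 libraries far apart. The ratio of Pgam1 to Bpgm, related phosphoglycerate enzymes, was 0.03, 0.02 and 0.12 at P28 and -0.46 and 0.29 at P4, a difference of 0.14 (exact permutation p = 0.8). At P10 it was 2.04 and -1.05, on 1 to 4 reads per peak, or 0 for Bpgm at replicate 1.

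Levels were also ranked within each library among the promoter peaks of all 14562 genes, which does not depend on the scale of the library. Eno1 stood between the 98.1 and 99.3 percentiles in the P28 libraries and between 98.8 and 99.1 in those of P10, from 82.5 and 95.8 at P4. At P28, Pgk1 ranked from 94.1 to 99.0, Pkm from 93.6 to 96.4 and Pfkfb2 from 88.1 to 93.6. The inner Pfkfb3 promoter reached 80.6 to 83.6, Tigar 78.3 to 82.2, Eno2 79.6 to 81.3 and Gapdh 75.0 to 79.6. Pgam1 (61.7 to 68.8) and Bpgm (61.0 to 66.3) ranked lowest. By mean RPKM at P28, which is per length of peak, Eno1 came first, then Pgk1 and Pkm. The Pgk1 libraries overlapped those of both neighbours, and those of Tigar, Eno2 and Pfkfb3 overlapped each other. Gapdh moved from 18.6 and 31.7 at P4 to at least 75.0 at P28, and Pgam1 from 20.4 and 25.1 to at least 61.7. The P4 ranks of Pgk1 (39.7 and 95.9) and Pfkfb2 (47.8 and 98.8) were far apart between the 2 libraries.

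**Figure D3:**
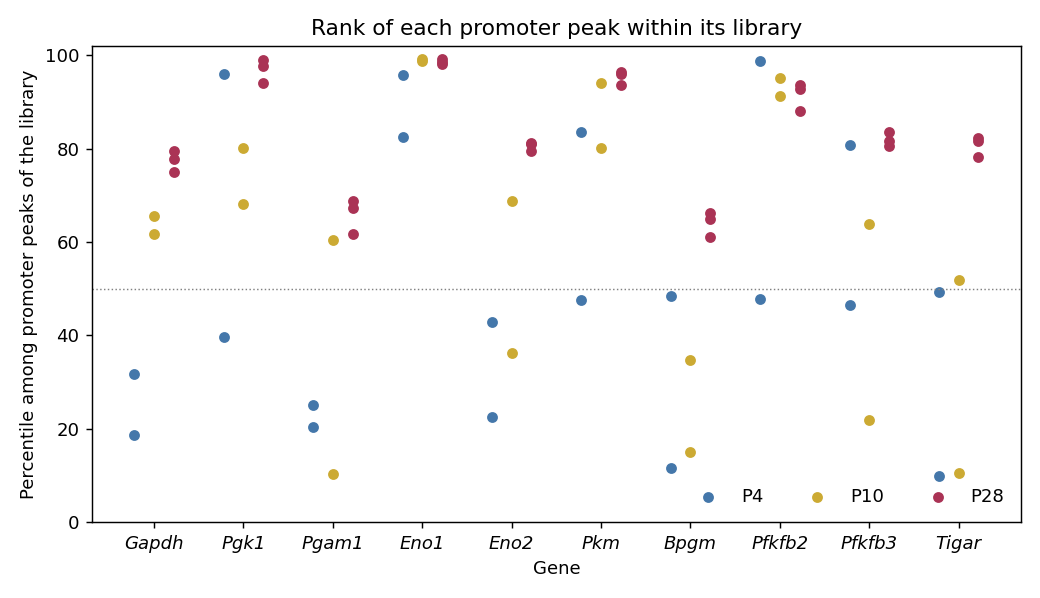
Percentile of each gene's promoter peak (x axis, gene) among the promoter peaks of all genes in the same library (y axis, percent), with 1 point per library and the dotted line at the middle rank. Eno1 lies above the 98 percentile in every P10 and P28 library, and the P28 points of Pgam1 and Bpgm are the lowest of the 10.

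Beyond these promoters, the members had 24 further peaks, 21 of them outside promoters: 12 in introns, 3 in exons, 3 in 3' UTRs, 1 in a 5' UTR and 2 in distal intergenic sequence. Gapdh, Pgk1, Pgam1 and Eno2 had a promoter peak alone, and Pfkfb3 had the most, 11 in all. Over the 34 peaks, 20 were called higher at P28 than at P4 and 0 lower, against 18.9% called higher of all peaks. Of all peaks called in this comparison, 81.8% were higher. The limit given above for the merged peaks applies here too. Every P28 library lay above every P4 library at 30, against 50.6%. Every P28 library lay below at 3, an exon and an intron peak of Pfkfb3 and the intron peak of Tigar. Shares of all peaks lying below are not given, so this and the later counts of peaks below have no background. For P10 against P4, 7 were called, against 11.4%, and at 18 both P10 libraries were above both P4 libraries, against 36.1%. They were below at 2, an intron peak each of Pfkfb3 and Tigar. For P28 against P10, limma called 0, against 0.00185% of all peaks, and at 20 every P28 library was above both P10 libraries, against 32.2%. They were below at 2, the Pkm 3' UTR peak and a Pfkfb3 intron peak. At an unadjusted p under 0.05 there were 17 (24.0% of all peaks), and voom called 5 (2.17% of all peaks). At 17 of the 34 peaks, each P4 library held at most 3 reads, so a fold is given for few of them.

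In Pkm, 3 of the 5 peaks in the gene body were called higher by P10. The intronic peak chr9:59659781-59661143, in intron 1 of 10, had 1.00 and 2.19 RPKM at P4, 6.62 and 15.62 RPKM at P10, and 11.16, 12.90 and 14.32 RPKM at P28. It rose by 2.16 to P10 (limma adjusted p = 0.00465) and 2.44 to P28 (limma adjusted p = 0.00120). The 5' UTR peak, chr9:59663098-59664321, rose by 2.12 to P10 (limma adjusted p = 0.00439) and by 1.93 to P28 (limma adjusted p = 0.00328). The peak over the 3' UTR, chr9:59677488-59678912, had 0.64 and 0.42 RPKM at P4, 10.14 and 6.64 RPKM at P10, and 4.79, 5.00 and 4.73 RPKM at P28. This peak was the one of the Pkm set with every P28 library below both P10 libraries, a difference of -0.66 that was not called (limma adjusted p = 0.223). It rose by 2.60 to P10 (limma adjusted p = 0.00153) and 1.94 to P28 (limma adjusted p = 0.00227). A further intron 1 peak of 406 bases, chr9:59661223-59661628, rose by 2.41 to P28 (limma adjusted p = 0.00725) on 0 and 2 reads at P4. The exon 8 peak had 0.73 and 0 RPKM at P4, 0 and 1.26 RPKM at P10, and 2.94, 3.54 and 7.18 RPKM at P28. Its P4 and P10 libraries overlapped, and its change of 2.00 to P28 was not called (limma adjusted p = 0.0160).

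Bpgm held 2 peaks in its last intron, more than 20 kb past the promoter. The wider, chr6:34501469-34504208, had 0.99 and 0.87 RPKM at P4, 9.22 and 6.91 RPKM at P10, and 8.62, 11.22 and 13.17 RPKM at P28. Unlike at the promoter, both P10 libraries were far above P4, with a change of 2.22 (limma adjusted p = 0.00199), and the change to P28 was 2.62 (SE 0.32, limma adjusted p = 0.000366). The other, chr6:34498314-34498953, had 0.71 and 0.93 RPKM at P4, 2.82 and 3.70 RPKM at P10, and 6.56, 9.41 and 9.71 RPKM at P28. Its ages did not overlap. The change to P10 was 1.22 and not called (limma adjusted p = 0.0340), and that to P28 was 2.38 (limma adjusted p = 0.000860). The difference between the promoter and the intronic peaks was not tested.

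On the log2(RPKM + 1) scale, the peak with the largest change among the 34 lay over the 3' UTR of Pfkfb2, chr1:130701309-130702596. It had 1.41 and 0.93 RPKM at P4, 9.81 and 5.51 RPKM at P10, and 15.89, 18.56 and 19.85 RPKM at P28. The ages did not overlap, and the changes were 1.96 to P10 (limma adjusted p = 0.00332) and 3.14 to P28 (SE 0.33, limma adjusted p = 0.000191). Exons of Gm29427 lie in the same peak, so its assignment to Pfkfb2 is uncertain. A peak in intron 1 of Pfkfb2 was 1.83 higher at P28 and not called (limma adjusted p = 0.0385). Another peak named for a Pfkfb2 3' UTR, chr1:130722936-130723582, lies over an exon of Yod1. It had 0 reads in all P4 and P10 libraries and 0.81, 1.23 and 1.60 RPKM at P28. It was called (1.13, limma adjusted p = 0.00291), although 0 reads allow up to 2.11 and 2.77 RPKM at P4, above each P28 value.

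Pfkfb3 had 8 peaks outside promoters, and differences among them were not tested. Called higher at P28 were the distal peak chr2:11463746-11465158 (1.75, limma adjusted p = 0.00845) and the intron 1 peak chr2:11534922-11536133 (1.43, limma adjusted p = 0.00739). The latter had 1.87 and 3.45 RPKM at P4, 5.96 and 5.20 RPKM at P10, and 7.36, 9.48 and 9.12 RPKM at P28. Its ages did not overlap, but the step to P10 (0.88, limma adjusted p = 0.0864) and that from P10 to P28 (0.55, limma adjusted p = 0.273) were not called. Intron 1 also held chr2:11542746-11543121, with 1.21 and 3.17 RPKM at P4, 0 reads in both P10 libraries, and 4.88, 3.60 and 4.13 RPKM at P28. Those zeros allow up to 14.4 and 6.29 RPKM, so a dip at P10 was not detectable at this depth, and the change of -1.60 to P10 was not called (limma adjusted p = 0.0302). The other 5 had changes from -0.77 to 1.31 and none was called. Of these, 1 exonic and 1 intronic peak had negative changes, -0.50 and -0.77.

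**Figure D4:**
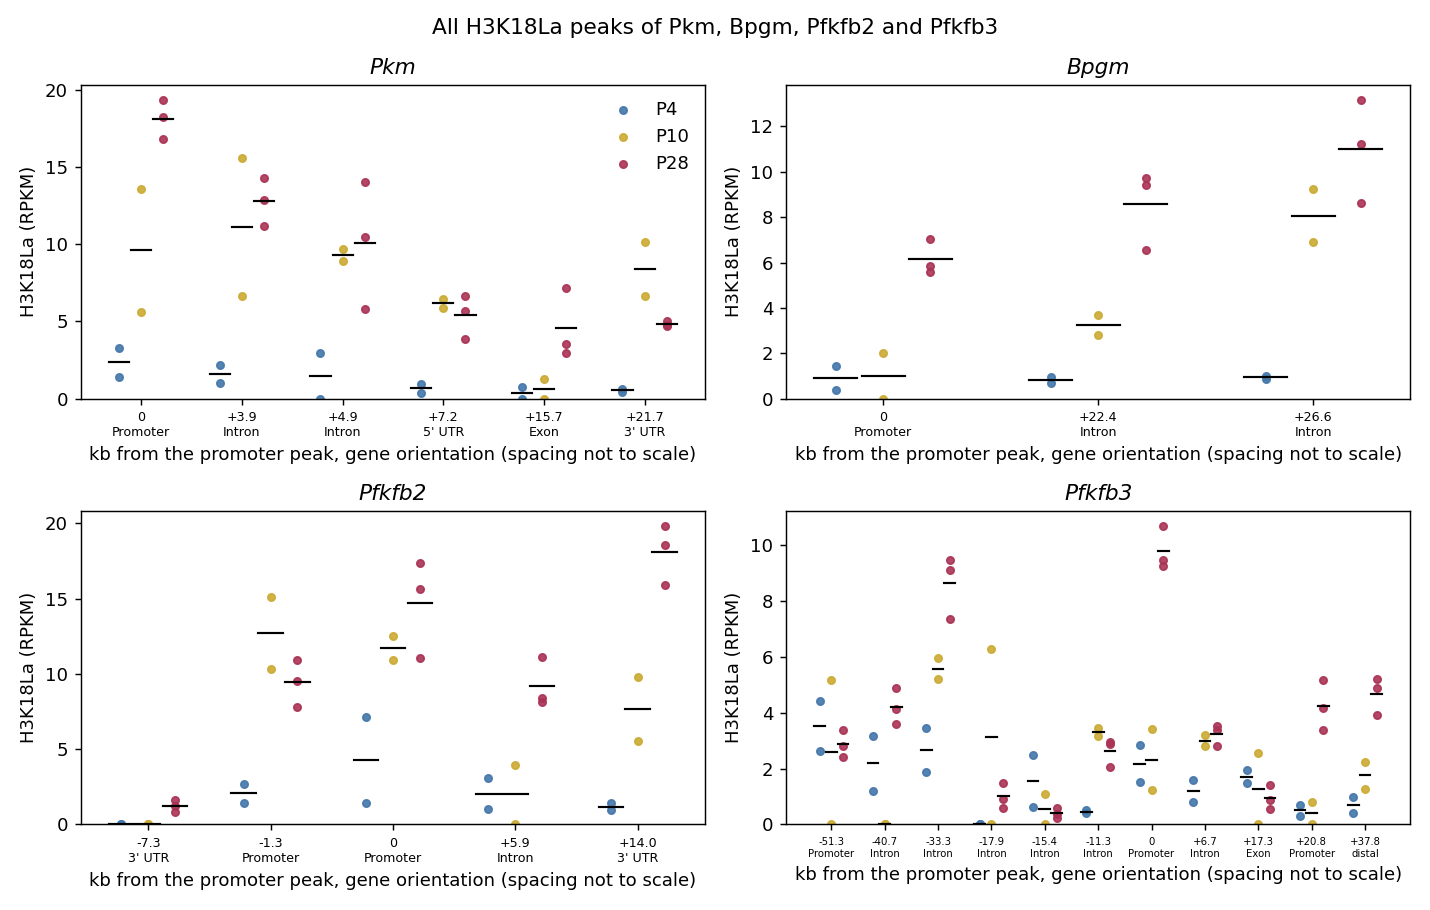
H3K18La in RPKM (y axis) at every peak of Pkm, Bpgm, Pfkfb2 and Pfkfb3, per library and with the mean as a line, ordered along the gene by distance in kb from the promoter peak (x axis, spacing not to scale). In Pkm the 3' UTR peak is lower at P28 than at P10, and in Bpgm the intronic peaks are above P4 in both P10 libraries while the promoter is not.

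The remaining peaks belonged to Eno1 and Tigar. The peak in exon 6 of 8 of Eno1, chr4:150247830-150248422, had 0 reads in both P4 libraries and 4.87, 4.35 and 4.95 RPKM at P28, at least 1.78-fold higher against a floor of 3 reads per P4 library (log2 change 2.52, limma adjusted p = 0.00739). The distal Eno1 peak was not called (1.73, limma adjusted p = 0.0168). The peak in intron 3 of 5 of Tigar, chr6:127091783-127092458, had 1.3 and 3.5 RPKM at P4, 0 reads in both P10 libraries, and 1.16, 0.73 and 0.51 RPKM at P28. It was the member peak with the most negative changes, -1.70 to P10 (limma adjusted p = 0.0106) and -0.87 to P28 (limma adjusted p = 0.0861), neither of them called and both on at most 8 reads per library. The 0 reads at P10 allow up to 8.01 and 3.50 RPKM, so a fall by P10 was not detectable at this depth.

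The other genes of the pathway were taken from lists of the upper steps and of further isozymes. All 9 upper-step genes had a promoter peak, and 7 rose from P4 to P28 by the same test (31.0% of all genes), with a median change of 2.47 over the list, next to 2.39 for the members. Those were Hk1 (2.47) and Hk2 (3.14), the hexokinases, Gpi1 (3.02), Pfkp (2.06), the aldolases Aldoa (2.72) and Aldoc (3.45), and Tpi1 (2.17). The phosphofructokinase subunits Pfkl (1.39, limma adjusted p = 0.0259) and Pfkm (1.61, limma adjusted p = 0.0240) were not called. By P10, Aldoa and Aldoc had risen (1.80 and 2.48), which is 2 of 9 (12.0% of all genes). The study shows Aldoa as an example from these libraries. Among 10 further isozymes, 2 had a promoter peak, Pgam2, the muscle form (1.08, limma adjusted p = 0.133), and Pfkfb4 (2.00, limma adjusted p = 0.0127), and 0 were called. The gluconeogenic gene Fbp1 was at -0.998 (limma adjusted p = 0.155).

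The scale of the libraries bears on the members' calls. The share of effective library size that fell in peaks was 16.3 and 17.6% at P4, 36.1 and 52.1% at P10, and 42.4 to 57.1% at P28. When each library was scaled instead to its reads in peaks, the median change of all promoter peaks from P4 to P28 went from 1.26 to 0.23, and that of the members from 2.39 to 1.27. All 10 changes stayed positive, and 2 were called (Gapdh and Eno1), while 7.66% of promoter peaks were called higher. On that scale the share of calls over all peaks that were higher at P28 was 32.7%, against 81.8% as deposited, and the members had 6 peaks called higher, against 7.08% of all peaks, and 1 lower, the Tigar intron peak. With each library centred on its median peak, 6 promoters were called, 20.7% of all promoter peaks were called higher and 56.9% of calls were higher.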

How the data were processed

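H3K18La CUT&Tag libraries of mouse retina were analysed from the authors' table of merged consensus peaks. Per the labels and the study's methods, the authors mapped reads to GRCm38, called peaks with MACS, annotated them with ChIPseeker (version 1.34.1; promoters from -1000 to 500 bases around a start site), and quantified them after normalization over large genomic windows. The deposited values are RPKM per peak and library. The deposited fold changes and p-values of the authors' own comparisons (edgeR version 3.40.2) and their peak intervals were not used, and 0 sample columns were left out.

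RPKM multiplied by peak width was a whole multiple of 1 read for 100.0% of values (within 0.01), so reads per peak were recovered. Depth was 199970 to 8274373 reads in peaks. Ages came from the labels. Since the values are not counts, limma (version 3.58.1, R 4.3.3) with a variance trend was fitted on log2(RPKM + 1) for all 108253 peaks and 7 libraries, without covariates, and p-values were adjusted over all peaks by Benjamini-Hochberg, with calls under 0.01. Fold changes on this scale understate low peaks. The fit was tested on simulated data. Isozyme ratios were compared by exact two-sided permutation tests. All 10 members were named, each with its promoter peak nearest a start site first (ties to the wider peak). Non-promoter peaks were named if called in any comparison, and some uncalled ones were chosen after their values were seen. Of the rod markers, 1 is not reported here. Members, lists and tests were chosen with earlier results of these data known. Overlaps with other genes used GENCODE annotation, in which 99.7% of 32058 matched transcripts had the table's coordinates. Alternatives were another pseudocount, a low-value filter, other scalings, voom on the recovered reads and another threshold. Another rule for the promoter peak, a replicate block and leaving out each library were also tried.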

Additional observations from a re-analysis of the deposited data

How the results depend on the processing

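Member promoter peaks held 1 to 20 reads per library at P4, and P10 replicate 1 was the shallowest library, so levels and folds that rest on either age are imprecise. The 10 promoters kept a positive change from P4 to P28 under each alternative, while calls did not all hold. Over genes and settings, 92 changes from P4 to P28 stayed on their side of the threshold, 41 lost a call and 7 gained one. From P4 to P10, 119 stayed, 6 gained a call and 15 uncalled ones changed sign. Dropping low peaks moved no count by over 1.5 times. Taking the promoter peak with the highest mean chose the same peak for all 10 genes, so this setting could not move a result. It is counted above among the changes that stayed. The causes were not tested.

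Of the member promoters (8 called at P28 against P4), a pseudocount of 0.1 left 4, scaling to reads in peaks 2, and leaving out 1 library gave 2 to 10. Over all member peaks (20), these gave 12, 7 and 5 to 28, and median centring 11. The median change of the promoters (2.39) was 2.99 with the pseudocount of 0.1, 1.27 when scaled to reads in peaks, 1.87 when median centred and 2.80 by voom, and 2.15 to 2.45 without 1 library. For P10 against P4, promoters called (1) became 4 at an adjusted p under 0.05, 2 when median centred and 4 by voom, and 1 to 2 without 1 library. All member peaks (7, all higher) became 15 with the threshold at 0.05 (13 up, 2 down), 4 when scaled to reads in peaks (2 up and 2 down, the latter being the Pfkfb3 intron peak and the Tigar intron peak with 0 reads at P10) and 11 by voom, and 1 to 9 without 1 library (the 9, without P10 replicate 2, include the outer Pfkfb3 promoter going down): 2 without P4 replicate 1, 1 without P4 replicate 2 and 4 without P28 replicate 2. A pseudocount of 0.1 gave 7 up and the same 2 introns down, and median centring 9 up and the Tigar intron down. For P28 against P10, promoters called (0) became 4 at an adjusted p under 0.05, 4 by voom and 0 to 2 without 1 library, and all member peaks (0) became 9, 5 and 0 to 8 (the 8, without P10 replicate 2, being 7 up and 1 Pfkfb3 intron peak down), with 1 at a pseudocount of 0.1. For P28 against P4, all member peaks called were 5 without P4 replicate 1, 6 without P4 replicate 2, 11 without P28 replicate 1, and 8 without P28 replicate 2 or 3. Where a P4 or P10 library was left out, the lone sample was assumed to vary like the other groups. Shares of all genes or peaks called are given above for some settings only. None is given for the pseudocount of 0.1, the threshold of 0.05, the fits without 1 library, or P10 against P4 on the other scales. Those counts cannot be set against a background.

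The sign of 15 uncalled changes from P4 to P10 turned. Pfkfb3 (0.02) was -0.00598 with a pseudocount of 0.1, -0.98 when scaled to reads in peaks, -0.23 when median centred and -0.11 by voom. It was -0.30 without P4 replicate 2 and -0.47 without P10 replicate 1. Scaled to reads in peaks, Pgk1 was -0.31, Pgam1 -0.17 and Tigar -0.33. Bpgm (-0.08) was 0.35 by voom, 0.33 without P4 replicate 1 and 0.71 without P10 replicate 1. Tigar was -0.18 without P4 replicate 1 and -0.27 without P10 replicate 1, and Pgam1 -0.25 without P10 replicate 1. Without P10 replicate 2 these were 1.25 (Pgam1), -0.88 (Bpgm), 0.50 (Pfkfb3) and 0.89 (Tigar), the far ends of their ranges when 1 library was left out.

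The labels number the replicates within each age, and same-numbered libraries of different ages shared little. Their deviations from the age mean correlated by -0.001 to 0.0469 over 6 pairs, and other pairs by -0.0469 to 0.0367. Where an age has 2 libraries, their deviations are mirror images. The 2 ranges are therefore tied to each other, and the pairs are not separate evidence. With the replicate block, 5 promoters and 11 member peaks were called at P28 against P4, and 2 promoters at P10 against P4. The share of all genes or peaks called with the block is not given, so these counts have no background.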
